A study of Homo sapiens with 4 samples.

Results

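The genes described here serve interferon signalling, the sensing of DNA in the cell and the presentation of peptides on class I molecules of the major histocompatibility complex (MHC). They were taken from a list of 50 symbols, matched through the Ensembl gene IDs of the expression table. A row was found for 34 of the 50, out of 15201 rows in all. Wild-type ARP-1 cells (WT) were compared with carfilzomib-resistant ARP-1 cells (CfzR), with n = 2 libraries in each group. ARP-1 is a human multiple myeloma cell line, and carfilzomib is an inhibitor of the proteasome. The labels give no dose, no selection scheme and no statement on whether the resistant cells are 1 clone or whether replicates are separate cultures. The p-values below therefore rest on a spread between libraries that may be technical.

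DNA in the cytosol is bound by the sensor cGAS, which makes a cyclic dinucleotide that activates the adaptor STING. The kinase TBK1 then phosphorylates the transcription factor IRF3, and type I interferon is made. Interferon binds its receptor on the same or neighbouring cells and, through JAK kinases, STAT proteins and IRF9, switches on interferon-stimulated genes that block viral replication. The same pathway, with interferon gamma and the transactivator NLRC5, raises class I molecules. Peptides cut by the proteasome are carried into the endoplasmic reticulum by TAP, trimmed by the aminopeptidases ERAP1 and ERAP2 and loaded onto class I heavy chains paired with beta-2 microglobulin.

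Values were FPKM, that is, fragments scaled by transcript length and by the fragments mapped in the library, which allow levels to be compared between genes. Depth is unknown, because the table holds no counts, so no counting error is given. The median FPKM over all rows was 7.50 to 7.75 in the 4 libraries, while the sum of FPKM was 673265 in CfzR replicate 1 and between 877849 and 955284 in the other libraries. The plasma cell identity of the line was checked with fixed markers. All 8 plasma cell markers had a row, with summed levels of 5865 and 5948 FPKM in WT and 6653 and 6093 FPKM in CfzR. JCHAIN, the joining chain of secreted immunoglobulin, made up most of that sum (3613 and 3493 FPKM in WT, 4601 and 3838 FPKM in CfzR). The markers did not share a direction. TNFRSF17 (312 and 382 against 194 and 275 FPKM) and XBP1 (953 and 1084 against 800 and 868 FPKM) lay lower in both CfzR libraries. JCHAIN, SDC1 (205 and 190 against 272 and 213 FPKM) and PRDM1 (145 and 129 against 182 and 152 FPKM) lay higher in both. CD38, IRF4 and MZB1 overlapped between the groups. Of 30 markers of B, T, natural killer, myeloid, stromal, epithelial and erythroid cells, 4 had a row (CD68, ITGAX, KRT8 and KRT18), and these 4 together summed to 9.32 and 9.74 FPKM in WT and 4.33 and 4.92 FPKM in CfzR. Their part in the results below was not tested.

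Promoter sequence is shown for 3 of the 4 tested genes with the smallest unadjusted p (IFI16, IFI6 and HLA-B), because interferon acts on these genes through short elements close to the start site. Of the 32 genes tested, 24 matched the RefSeq promoter table (GRCh38.p14). Each window holds the 250 bases before a RefSeq start, written 5′ to 3′ on the gene's strand. Capitals mark matches, on either strand, to the core of the interferon-stimulated response element (ISRE, here GAAA, any 2 bases, GAAA on 1 strand), GAANNGAA (a related element with a shorter spacing) or TTCNNNGAA (the gamma-activated site, GAS). The patterns can overlap each other. The windows are chr1:159008741-159008990 and chr1:159009657-159009906 on the plus strand for the 2 starts of IFI16, chr1:27672193-27672442 on the minus strand for IFI6, and chr6:31357180-31357429 on the minus strand for HLA-B.
IFI16 window 1: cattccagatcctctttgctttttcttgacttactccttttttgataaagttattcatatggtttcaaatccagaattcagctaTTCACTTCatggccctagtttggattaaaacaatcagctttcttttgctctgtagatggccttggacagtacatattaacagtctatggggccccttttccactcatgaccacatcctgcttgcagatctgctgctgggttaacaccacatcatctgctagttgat
IFI16 window 2: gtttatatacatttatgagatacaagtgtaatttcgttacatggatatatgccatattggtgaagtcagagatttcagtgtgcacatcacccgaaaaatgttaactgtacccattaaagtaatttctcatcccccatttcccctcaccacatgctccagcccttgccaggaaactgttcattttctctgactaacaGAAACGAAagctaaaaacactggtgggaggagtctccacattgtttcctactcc
IFI6: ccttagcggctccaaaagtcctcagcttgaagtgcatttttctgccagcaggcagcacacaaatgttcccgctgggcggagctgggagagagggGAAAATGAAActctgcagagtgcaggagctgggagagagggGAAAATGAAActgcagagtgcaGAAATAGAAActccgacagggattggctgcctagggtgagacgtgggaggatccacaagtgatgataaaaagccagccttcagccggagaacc
HLA-B: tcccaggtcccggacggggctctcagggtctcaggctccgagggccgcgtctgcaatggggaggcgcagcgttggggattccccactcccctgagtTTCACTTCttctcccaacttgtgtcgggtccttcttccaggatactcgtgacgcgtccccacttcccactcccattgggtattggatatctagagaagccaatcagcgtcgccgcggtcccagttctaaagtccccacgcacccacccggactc

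The IFI6 window held 3 matches to the ISRE core, 156, 115 and 93 bases before the start. Each IFI16 window held 1 match to the shorter-spaced element, 166 bases before the first start and 54 bases before the second. The HLA-B window held 1 match to that element, 154 bases before the start, with the same letters as the first IFI16 match (TTCACTTC). For ERAP2, the third gene by p, a match to the ISRE core (GAAAGTGAAA) lay 30 bases before its second RefSeq start. Over the 24 genes with a window, 8 (33.3%) held the ISRE core: B2M, BST2, ERAP2, IFI6, IFITM1, IFITM3, ISG15 and ISG20. Among all 27305 genes of the promoter table the share was 3.71%. The shorter-spaced element was found in 9 of the 24 (37.5%, against 19.2% of all genes) and the GAS in 5 (20.8%, against 8.09%). The 8 genes with an ISRE core did not share a direction in the expression data: 4 had a log2 fold change above 0 and 4 below, from -0.45 to 0.87. A match is a description of the letters in the window and no evidence of binding.

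Genes were tested with limma on log2(FPKM + 1) over the whole table, for genes averaging 1 FPKM or more over the 4 libraries, and an adjusted p (Benjamini-Hochberg) under 0.05 was the threshold. Of the 34 genes with a row, 32 passed the filter on low values. A single gene rose, the DNA sensor IFI16, and 0 fell. Among all 13411 genes tested, 0.350% passed the threshold, 0.246% higher and 0.104% lower in CfzR. At an unadjusted p under 0.05 there were 8 of the 32, 4 higher and 4 lower, against 11.1% of all genes (5.32% higher and 5.81% lower). In CfzR 10 genes (31.2%) lay above and 5 (15.6%) below both WT libraries, without overlap, against 22.1% and 22.6% of all genes. Together these were 46.9%, against 44.7% of all genes. The median log2 fold change of the 32 was 0.07, against -0.02 over all genes tested. The share without overlap in either direction and the median were near those of all genes. By direction, the share was larger above WT and smaller below WT than among all genes. Signalling genes lay on both sides of WT without overlap (3 higher and 1 lower), as did effectors (4 and 1) and presentation genes (2 and 3).

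**Figure D1:**
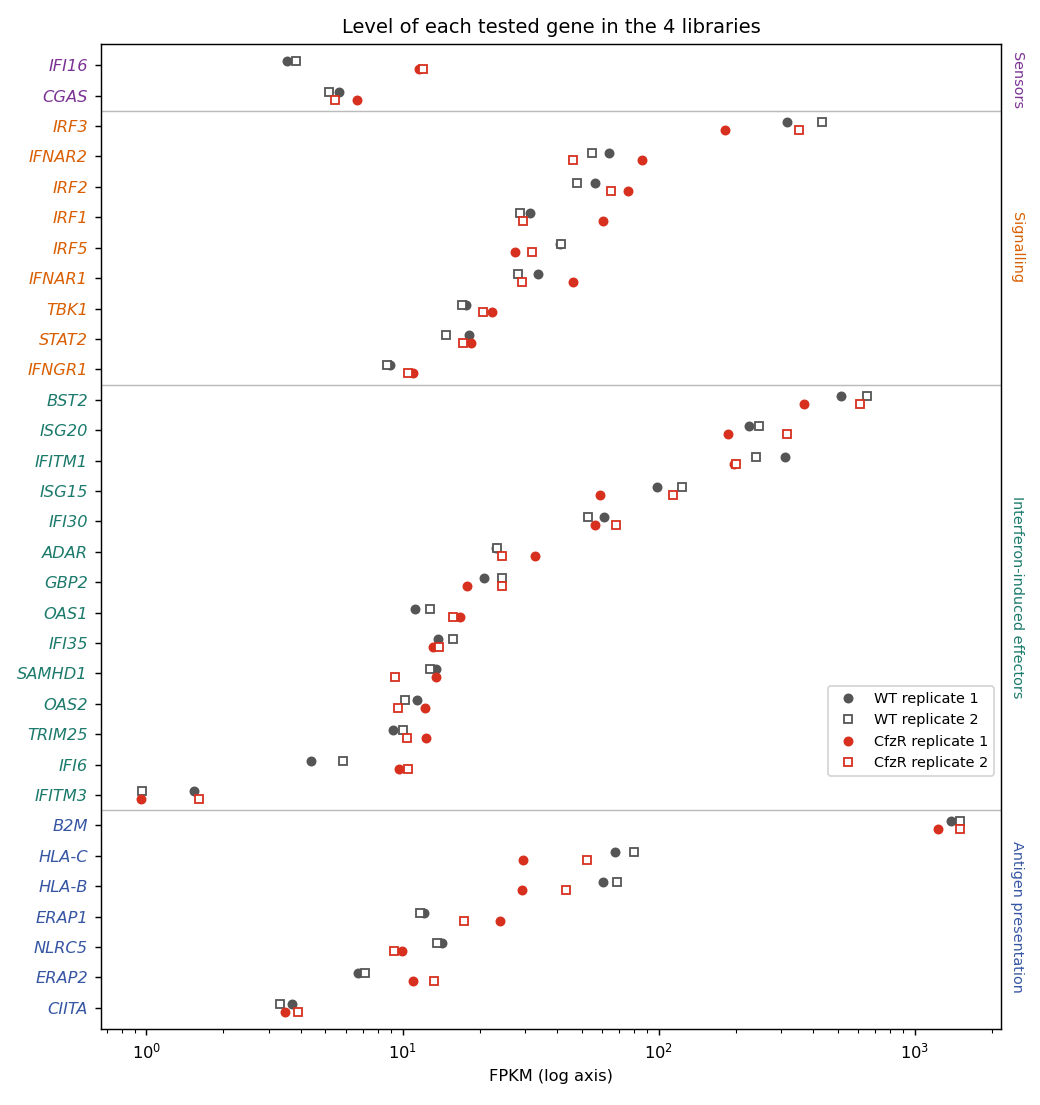
FPKM (log axis) of the 32 tested genes in each of the 4 libraries, grouped by role and ordered by mean level. Grey symbols are WT and red symbols CfzR, with circles for replicate 1 and squares for replicate 2. IFI16 stands at 11.6 and 12.0 FPKM in CfzR, to the right of 3.52 and 3.83 in WT, whereas CGAS below it overlaps.

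**Figure D2:**
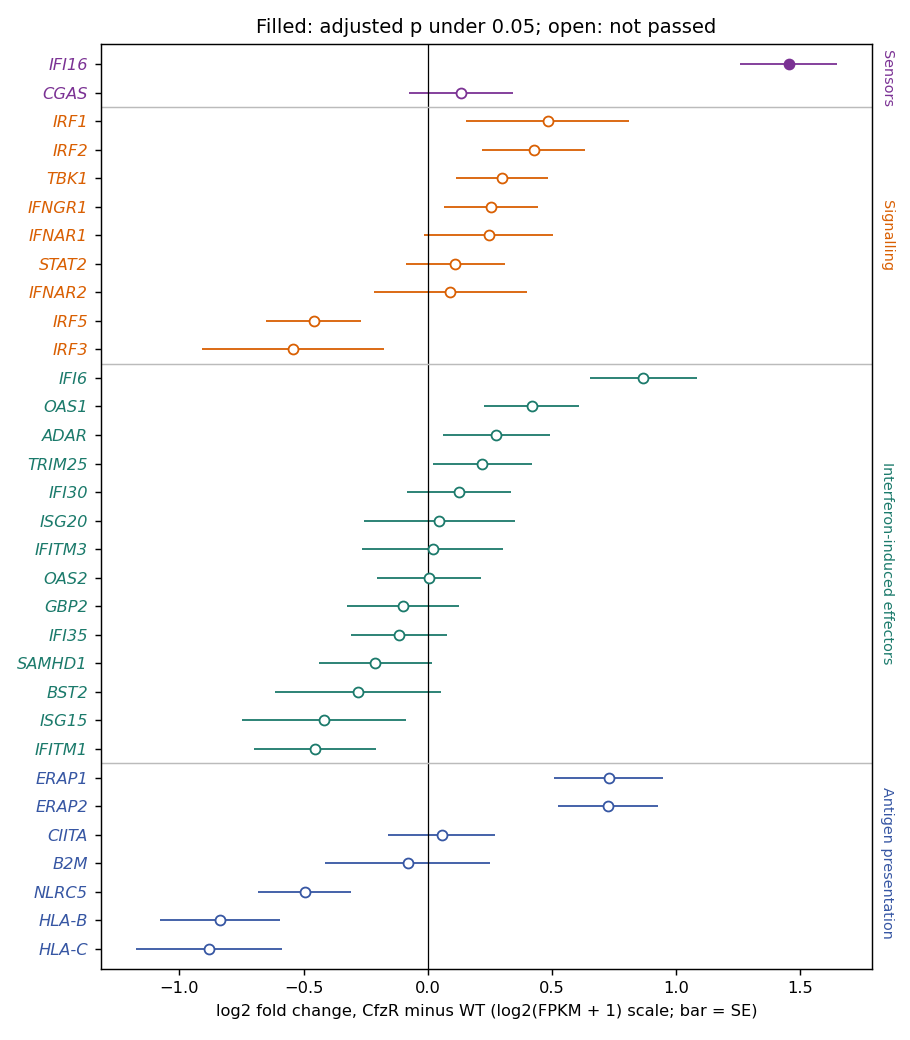
Log2 fold change of CfzR against WT on the log2(FPKM + 1) scale for the same 32 genes, with the SE of the limma fit as bars. The filled symbol (IFI16, 1.45) is the only gene past the threshold, and HLA-B (-0.84) and HLA-C (-0.88) lie at the low end opposite ERAP1 and ERAP2 (both 0.73).

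Of the 3 DNA sensing genes, IFI16 and CGAS had a row. IFI16 is a nuclear and cytosolic DNA-binding protein of the PYHIN family that acts with STING and is itself induced by interferon. IFI16 (ENSG00000163565, chromosome 1, 158999968 to 159055155 in GENCODE 29 on GRCh38) had 3.52 and 3.83 FPKM in WT and 11.6 and 12.0 FPKM in CfzR. The libraries within each group were close together and the groups were far apart. The mean rose 3.21-fold, from 3.68 ± 0.216 to 11.8 ± 0.229 FPKM (SD, n = 2 each), with a log2 fold change of 1.45 (SE 0.20, limma adjusted p = 0.0457). The call was close to the threshold. The adjusted p was 0.185 without CfzR replicate 1, 0.0875 without CfzR replicate 2, 0.0614 with no filter, 0.0585 with a filter at 5 FPKM, 0.0508 after quantile normalization, 0.0525 without the mean-variance trend and 0.0891 after removal of a trend with the length and GC content of transcripts. The log2 fold change was 0.95 to 1.66 over all alternatives, the ends of that range being set by pseudocounts of 5 and 0.1, and it was 1.44 and 1.47 with CfzR replicates 1 and 2 taken singly. In bulk RNA, more transcript in each cell and more cells with the transcript cannot be told apart.

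CGAS, the cytosolic enzyme that makes the second messenger, had 5.67 and 5.17 FPKM in WT and 6.67 and 5.45 FPKM in CfzR (a log2 difference of 0.13 with an SE of 0.21, adjusted p = 0.812), and the groups overlapped. The ratio of IFI16 to CGAS within a library, which does not depend on the scaling of the library, was 0.622 and 0.741 in WT and 1.75 and 2.20 in CfzR. IFI16 was thus the lower of the sensors in WT and the higher in CfzR. The tested genes next to IFI16 on the chromosome, ELL2P1 and DUSP23, named after their values were seen, did not pass (log2 differences 0.26 and 0.43, with adjusted p of 0.686 and 0.606). STING1 is not analysed here.

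Of 13 signalling genes, 9 were tested and 0 passed by limma, with 1 (IRF5) at an unadjusted p under 0.05. Positive values were found for 7 and negative values for IRF3 and IRF5. TBK1, the kinase that acts on IRF3, had 17.6 and 17.02 FPKM in WT and 22.4 and 20.7 FPKM in CfzR (a log2 difference of 0.30 with an SE of 0.19, adjusted p = 0.564). Both CfzR libraries lay above both WT libraries. Its substrate IRF3 was the most abundant of the signalling genes, at 316 and 434 FPKM in WT and 182 and 353 FPKM in CfzR. The groups overlapped, and the CfzR libraries differed from each other more than the group means did (a log2 difference of -0.54 with an SE of 0.37, adjusted p = 0.588).

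IRF5, a factor that acts downstream of Toll-like receptors, had 41.0 and 41.5 FPKM in WT and 27.6 and 32.0 FPKM in CfzR, without overlap (a log2 difference of -0.46 with an SE of 0.19, adjusted p = 0.445). IRF2, which can oppose IRF1 on shared elements, had 56.6 and 47.9 FPKM in WT and 75.6 and 65.3 FPKM in CfzR, also without overlap (a log2 difference of 0.43 with an SE of 0.21, adjusted p = 0.496). IRF1, an activator induced by interferon gamma, had 31.4 and 28.8 FPKM in WT, 60.5 in CfzR replicate 1 and 29.6 in CfzR replicate 2. A single library carried the whole difference for IRF1, whose second CfzR value lay between the WT values. IRF7, IRF8 and IRF9 are not analysed here.

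Of the receptor chains, IFNAR1, IFNAR2 and IFNGR1 were measured. IFNAR2, the high-affinity chain of the type I receptor, had 64.0 and 55.1 FPKM in WT and 86.3 and 46.4 FPKM in CfzR (log2 fold change 0.09, adjusted p = 0.922), so the CfzR libraries fell on either side of WT. Its partner IFNAR1 was likewise highest in CfzR replicate 1, with 33.9 and 28.2 FPKM in WT and 46.3 and 29.3 FPKM in CfzR. The ratio of IFNAR2 to IFNAR1 was 1.89 and 1.95 in WT and 1.86 and 1.58 in CfzR. IFNGR1, a chain of the interferon gamma receptor, had 8.96 and 8.67 FPKM in WT and 10.98 and 10.5 FPKM in CfzR, without overlap (a log2 difference of 0.26 with an SE of 0.19, adjusted p = 0.622). STAT2, which carries the type I signal to the nucleus, overlapped between groups (log2 fold change 0.11). IFNGR2 is not analysed here.

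Of 23 interferon-induced effectors, 16 had a row and 14 were tested. None of the 14 passed by limma, 1 (IFI6) had an unadjusted p under 0.05, and the values split into 8 above 0 and 6 below, with a median log2 fold change of 0.01. IFI6, a small membrane protein that restrains flaviviruses and apoptosis, had 4.39 and 5.84 FPKM in WT and 9.69 and 10.5 FPKM in CfzR, without overlap. Its mean was 5.11 ± 1.02 FPKM in WT and 10.1 ± 0.554 FPKM in CfzR (SD, n = 2 each), a 1.97-fold ratio (a log2 difference of 0.87 with an SE of 0.21, adjusted p = 0.213). This is the gene whose window above held 3 ISRE cores. OAS1, which makes the activator of the antiviral nuclease RNase L, had 11.2 and 12.8 FPKM in WT and 16.8 and 15.8 FPKM in CfzR, without overlap (a log2 difference of 0.42 with an SE of 0.19, adjusted p = 0.483). Its neighbour on chromosome 12, OAS2, had 11.4 and 10.2 FPKM in WT and 12.2 and 9.59 FPKM in CfzR, with overlap (log2 fold change 0.0035). OAS3 stood at 0.602, 0.451, 0.997 and 0.583 FPKM in WT replicates 1 and 2 and CfzR replicates 1 and 2, under the filter. The OAS genes therefore differed in level within the line, with OAS3 far below its neighbours.

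IFITM1, a membrane protein that blocks viral entry, was by far the most abundant of its family. It had 311 and 240 FPKM in WT and 198 and 200 FPKM in CfzR, without overlap and with the wider spread in WT (a log2 difference of -0.45 with an SE of 0.24, adjusted p = 0.526). IFITM3 had 1.53 and 0.961 FPKM in WT and 0.957 and 1.61 FPKM in CfzR, and IFITM2 had 1.56, 0.502, 0.521 and 0.684 FPKM in the same order, under the filter. IFITM2 and IFITM3 are near-identical neighbours on chromosome 11, so their low values are uncertain where reads could be assigned to either copy.

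The most abundant effector was BST2, or tetherin, which holds budding virus at the membrane and is an antigen of plasma cells. It ranked 226 of 15201 rows by mean level, with 514 and 651 FPKM in WT and 371 and 610 FPKM in CfzR. The groups overlapped, and the log2 fold change of -0.28 (adjusted p = 0.752) turned to 0.039 after quantile normalization. ISG20, an exonuclease, had 226 and 247 FPKM in WT and 187 and 318 FPKM in CfzR, so that the CfzR libraries lay on either side of WT. ISG15, a ubiquitin-like modifier, had 98.1 and 123 FPKM in WT, 58.9 in CfzR replicate 1 and 114 in CfzR replicate 2. For BST2, ISG20 and ISG15 alike, CfzR replicate 1 was the lowest of the 4 libraries and CfzR replicate 2 was not.

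ADAR, which edits double-stranded RNA, had 23.2 and 23.4 FPKM in WT, 33.0 in CfzR replicate 1 and 24.5 in CfzR replicate 2, without overlap but with most of the difference in replicate 1 (log2 fold change 0.28, adjusted p = 0.638). TRIM25, a ubiquitin ligase of the RNA sensor pathway, had the same order (log2 fold change 0.22). The remaining tested effectors overlapped between the groups: the nucleotide hydrolase SAMHD1 (log2 fold change -0.21), the lysosomal thiol reductase IFI30 (0.13), IFI35 (-0.12) and the guanylate-binding protein GBP2 (-0.10). IFI27, IFIT1, IFIT2, IFIT3, MX1, TRIM22 and XAF1 are not analysed here.

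Of 11 genes of antigen presentation, 7 were tested and 0 passed by limma, while 5 had an unadjusted p under 0.05, against 11.1% of all genes. The groups did not overlap for 5 of the 7, with ERAP1 and ERAP2 higher and HLA-B, HLA-C and NLRC5 lower in CfzR. Over all genes tested, 22.1% were higher and 22.6% lower without overlap. B2M, the invariant chain of class I molecules, ranked 107 of 15201 rows and had 1383 and 1502 FPKM in WT and 1232 and 1507 FPKM in CfzR. The groups overlapped, and its log2 fold change of -0.08 (SE 0.33, adjusted p = 0.936) turned to 0.27 after quantile normalization.

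HLA-B, a class I heavy chain, had 60.8 and 68.7 FPKM in WT and 29.4 and 43.4 FPKM in CfzR. Both CfzR libraries lay below both WT libraries. The mean was 64.7 ± 5.59 FPKM in WT and 36.4 ± 9.96 FPKM in CfzR (SD, n = 2 each), with a log2 fold change of -0.84 (SE 0.24, adjusted p = 0.281). HLA-C, the neighbouring heavy chain gene and a ligand of natural killer cell receptors, had 67.4 and 80.4 FPKM in WT and 29.6 and 52.6 FPKM in CfzR, also without overlap (a log2 difference of -0.88 with an SE of 0.29, adjusted p = 0.342). Without CfzR replicate 1 the log2 difference of HLA-C was -0.48, and without CfzR replicate 2 it was -1.29. Set against B2M within each library, HLA-B was 4.40% and 4.57% of the B2M level in WT and 2.38% and 2.88% in CfzR. For HLA-C the ratio was 4.88% and 5.36% in WT and 2.40% and 3.49% in CfzR. The heavy chains thus lay lower against their partner chain in both CfzR libraries, a comparison that needs no scaling between libraries. The ratio does not remove differences between libraries along GC content, which are described below. The GC content of the longest transcript was 59% for HLA-B, 62.7% for HLA-C and 40.6% for B2M.

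The level of the heavy chains is uncertain. Of 140 protein-coding RefSeq genes from HLA-F to TAPBP on chromosome 6, 6 had a row (4.29%), HLA-B and HLA-C among them. Elsewhere on the chromosomes 53.9% had one. The table also holds 174 gene IDs that no symbol table used here pairs with a name, and 161 of these are listed by GENCODE 29 as genes without being in its primary assembly annotation. Class I genes are highly similar to each other and vary between haplotypes, so reads could be split between these rows and others. In GENCODE 29 the span of HLA-B (31269491 to 31357188) also overlaps that of HLA-C (31268749 to 31272130). HLA-E, TAP1, TAP2 and TAPBP are not analysed here.

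NLRC5, the transactivator of class I genes, had 14.3 and 13.7 FPKM in WT and 9.96 and 9.28 FPKM in CfzR, without overlap and with a small spread in each group (a log2 difference of -0.50 with an SE of 0.19, adjusted p = 0.403). It lay below WT together with HLA-B and HLA-C. CIITA, the corresponding transactivator of class II genes, had 3.69 and 3.32 FPKM in WT and 3.47 and 3.90 FPKM in CfzR, with overlap (log2 fold change 0.06).

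The trimming enzymes lay on the other side. ERAP1, which shortens peptides in the endoplasmic reticulum, had 12.2 and 11.7 FPKM in WT and 24.0 and 17.4 FPKM in CfzR (a log2 difference of 0.73 with an SE of 0.22, adjusted p = 0.297). ERAP2, its paralogue, had 6.68 and 7.12 FPKM in WT and 11.01 and 13.2 FPKM in CfzR (a log2 difference of 0.73 with an SE of 0.20, adjusted p = 0.259). The mean was 1.73 times that of WT for ERAP1 and 1.75 times for ERAP2, and neither gene overlapped between groups. The genes lie next to each other on chromosome 5, ERAP1 from 96760810 to 96808100 and ERAP2 from 96875939 to 96919716. LNPEP, a further aminopeptidase of the cluster, named after its values were seen, had 5.84 and 6.24 FPKM in WT and 10.7 and 7.34 FPKM in CfzR (log2 fold change 0.49, adjusted p = 0.491). The flanking CAST and RIOK2 had log2 fold changes of -0.15 and -0.14. ELL2, beyond CAST, had 0.48, and ENSG00000247121, which starts between ERAP1 and ERAP2, had 0.57. Both were named after their values were seen, and neither passed. The ratio of ERAP2 to ERAP1 was 0.550 and 0.609 in WT and 0.459 and 0.761 in CfzR, so it did not separate the groups.

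Other genes of the pathway came from a list of 122 symbols, of which 67 had a row and 61 were tested. None passed by limma, and 12 had an unadjusted p under 0.05, 10 higher and 2 lower, against 11.1% of all genes (5.32% higher and 5.81% lower). Without overlap, 20 lay higher and 14 lower (55.7% together, against 44.7% of all genes), and the median log2 fold change was 0.10. Among 23 other interferon-induced genes, 12 (52.2%) lay higher and 4 (17.4%) lower without overlap, against 22.1% and 22.6% of all genes, and the median log2 fold change was 0.28 (0.26 and 0.30 in CfzR replicates 1 and 2). NMI, an interferon-induced partner of STAT proteins, had 10.5 and 10.0 FPKM in WT and 4.81 and 5.09 FPKM in CfzR (a log2 difference of -0.92 with an SE of 0.19, adjusted p = 0.144). APOL1, an interferon-induced apolipoprotein, had 0.492 and 0.332 FPKM in WT and 1.74 and 2.05 FPKM in CfzR (a log2 difference of 1.04 with an SE of 0.26, adjusted p = 0.213). HERC5, the ligase for ISG15, had 0.608 and 0.534 FPKM in WT and 2.26 and 1.93 FPKM in CfzR (adjusted p = 0.222). Genes such as APOL1 and HERC5 passed the filter only through their CfzR values, so the counts for this list are no support for a direction.

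**Figure D3:**
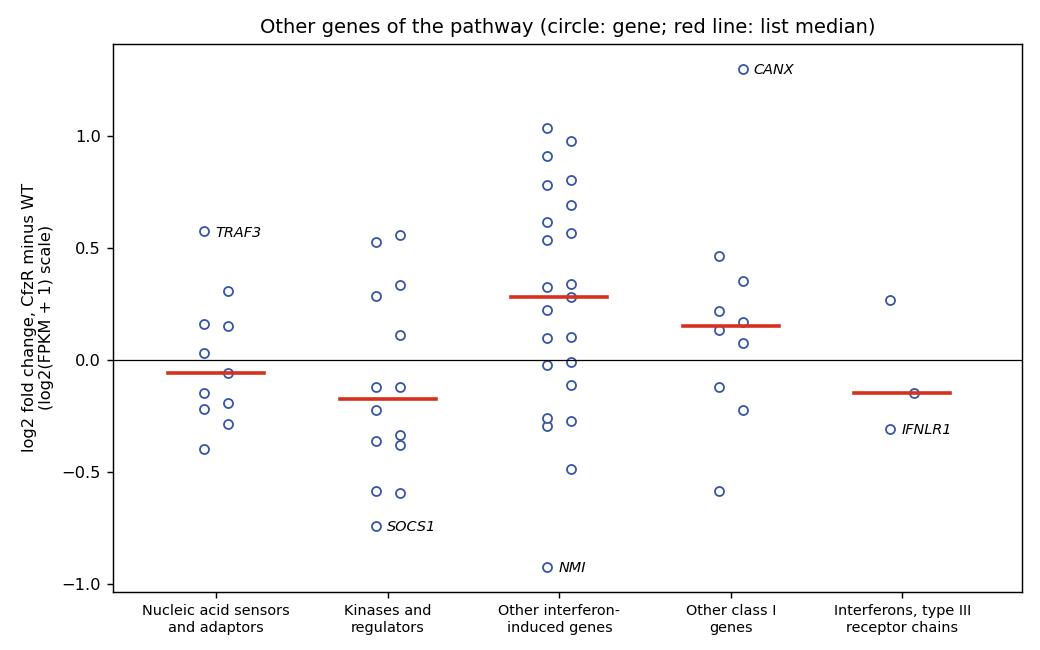
Log2 fold change of CfzR against WT on the log2(FPKM + 1) scale for the 61 tested genes of the wider pathway, by list. Each circle is a gene, the red line is the median of the list (0.28 for other interferon-induced genes), and the name marks the gene of smallest unadjusted p in each list.

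Among 14 kinases and regulators 3 (21.4%) lay higher and 7 (50%) lower without overlap, against 22.1% and 22.6% of all genes. SOCS1, a feedback inhibitor of JAK kinases and the gene of smallest p in this list, had 16.0 and 12.5 FPKM in WT and 6.14 and 10.5 FPKM in CfzR (a log2 difference of -0.74 with an SE of 0.28, adjusted p = 0.398). Both CfzR libraries of SOCS1 lay below both WT libraries. Of 11 nucleic acid sensors and adaptors, 2 lay higher and 2 lower without overlap (18.2% each, against 22.1% and 22.6% of all genes). TRAF3, an adaptor upstream of TBK1, had 6.59 and 5.74 FPKM in WT and 11.1 and 8.37 FPKM in CfzR (adjusted p = 0.408), and TREX1, the exonuclease that degrades cytosolic DNA, had 58.0 and 64.6 FPKM in WT and 36.8 and 57.9 FPKM in CfzR (adjusted p = 0.576). The RNA sensor IFIH1, under the filter, had 0.0672 and 0.198 FPKM in WT and 1.49 and 0.912 FPKM in CfzR. The related sensor RIGI, also under the filter, had 0.426 and 0.542 FPKM in WT and 0.529 and 0.554 FPKM in CfzR, with overlap.

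Among 10 other class I genes, CANX and PDIA3 had the smallest p. CANX, the chaperone calnexin that holds new heavy chains, had 3.55 and 5.84 FPKM in WT and 15.2 and 10.7 FPKM in CfzR, without overlap (a log2 difference of 1.30 with an SE of 0.28, adjusted p = 0.153; 0.0148 without WT replicate 2). PDIA3, a member of the peptide loading complex, had 110 and 110 FPKM in WT and 164 and 142 FPKM in CfzR (a log2 difference of 0.46 with an SE of 0.21, adjusted p = 0.479). Both also serve general protein folding. Of the interferons, IFNL1, a type III interferon, had a row, at 4.003 and 3.53 FPKM in WT and 2.86 and 7.50 FPKM in CfzR, and its receptor chain IFNLR1 had 6.16 and 5.70 FPKM in WT and 5.87 and 3.56 FPKM in CfzR. Both overlapped between groups (adjusted p = 0.783 and 0.657). Of 12 class II genes CD74, the invariant chain, had a row. It had 0.639 and 0.265 FPKM in WT and 1.55 and 1.45 FPKM in CfzR, under the filter.

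The CfzR libraries differed from each other along transcript length and GC content. Over 12896 genes with a GENCODE 29 length, the difference of CfzR replicate 1 from CfzR replicate 2 had a Spearman correlation of 0.466 with the length of the longest transcript, against 0.146 for the WT pair. Over the 32 genes described here it was 0.524, as a description across genes that share the same libraries. The correlation of that difference with GC content was -0.350 over all genes and -0.547 over the 32, and the parts of length and GC content were not tested separately. Of the 12 with a transcript under 2500 bases, 10 were lower in CfzR replicate 1 than in CfzR replicate 2, and of the 20 longer ones 7 were lower. The short transcripts of ISG15, BST2 and HLA-C belong to the first kind, and the longer ones of IRF1, IFNAR1 and IFNAR2 were higher in CfzR replicate 1. IFI16 differed by 0.04 on the log2 scale between the CfzR libraries. After the length and GC correction, the log2 fold change was -0.67 for HLA-B, -0.72 for HLA-C, 0.54 for ERAP1, 0.55 for ERAP2 and 1.09 for IFI6, and no gene of the 32 passed the threshold.

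**Figure D4:**
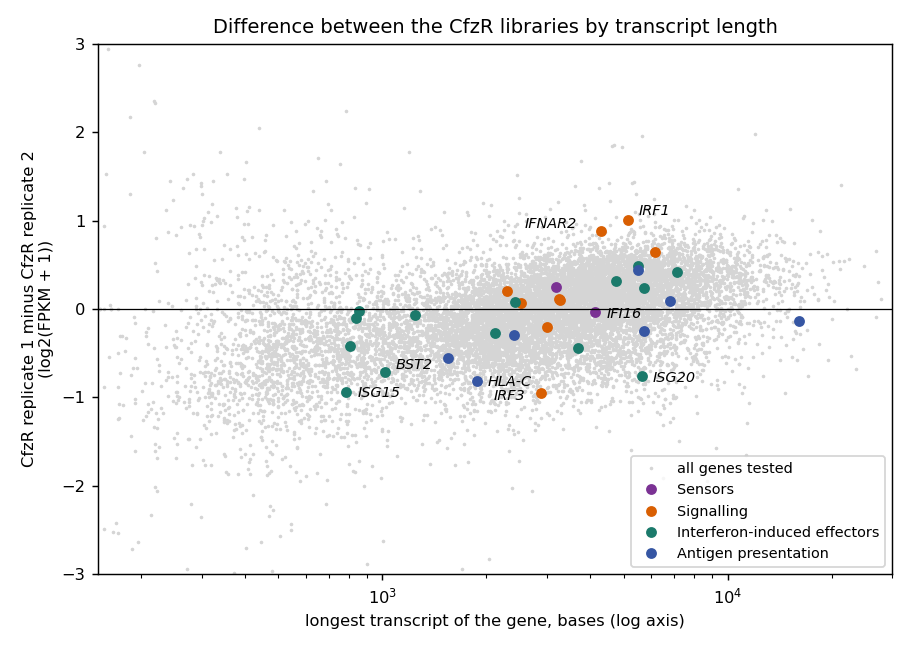
Difference between CfzR replicates 1 and 2 in log2(FPKM + 1) against the length of the longest transcript (log axis), for all genes tested with a length (grey) and the 32 genes by role (colours). A few grey points lie outside the axes. Short transcripts such as ISG15 lie below 0 and long ones such as IRF1 above it, whereas IRF3 and ISG20 lie below 0 despite transcripts of over 2500 bases, and IFI16 lies close to 0.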

How the data were processed

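RNA was sequenced from 4 libraries (2 WT, 2 CfzR). The authors deposited 1 table of FPKM values, 1 column per library, made with STAR and Cufflinks per the submitters' processing notes. The sources used here do not give tool versions, build, annotation, strandedness or filters. The columns named for a control were assigned to WT, the only other group. The lowest row mean was 0.500 FPKM. No shared step of 1 read was found: among 1399 genes below 1 FPKM in both WT libraries at most 3 had the same ratio.

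Symbols were matched by gene ID for 15027 rows, and positions and lengths are those of GENCODE 29 (GRCh38), not the authors'. Values were tested as log2(FPKM + 1), for genes averaging 1 FPKM or more, in limma 3.58.1 under R 4.3.3 (moderated statistics, prior variance trended on mean level), two-sided, with Benjamini-Hochberg adjustment over all 13411 genes. The scale understates changes of low genes. Folds are ratios of mean FPKM. The procedure was tested on simulated data. The 4 libraries can be divided in only 3 ways, so no permutation test could pass.

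The genes, lists and tests were chosen with earlier results of these data known. Genes named with values were those past the threshold, the 4 of smallest p and the 2 of highest level per role, the near-identical families, and the 2 of smallest p per wider list, of which 1 is not reported here. IRF1, IFNAR1, IFNGR1, ISG15, NLRC5, CIITA, HERC5, IFIH1, RIGI and CD74 were added after their values were seen. Alternatives were other pseudocounts and filters, scaling by trimmed means of M-values (TMM), quantile normalization, no trend, the replicate number as a block and leaving out each library. A length and GC correction (splines with 4 degrees of freedom, 12896 genes, 96.2%) was added after seeing the data.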

Additional observations from a re-analysis of the deposited data

How the results depend on the processing

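The 47 genes past the threshold over all genes became 27 with a filter at 5 FPKM, 1242 with the replicate number as a block and 16 to 260 with a library left out (16 without CfzR replicate 1, 17 without CfzR replicate 2, 148 without WT replicate 2 and 260 without WT replicate 1). Of the 32 genes described, the count of 1 became 0 with no filter, a filter at 5 FPKM, quantile normalization, no mean-variance trend or the length and GC correction, 6 with the replicate block, and 0 to 1 with a library left out (0 without either CfzR library). The wider list went from 0 to 7 with the block and 0 to 1 with a library left out. The 8 genes at an unadjusted p under 0.05 became 2 to 15 with a library left out: 3 and 2 without WT replicates 1 and 2, and 15 without CfzR replicate 2. The median log2 fold change of the 32 was 0.10 with a filter at 5 FPKM, 0.095 with TMM, 0.19 after quantile normalization and 0.0036 to 0.17 with a library left out. The cause was not tested. A fit with a library left out has a lone library in 1 group, assumed to vary like the other.

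The 6 genes past the threshold with the block were IFI16, IFI6, ERAP1, ERAP2, HLA-B and HLA-C (adjusted p = 9.11e-08, 0.00469, 0.0137, 0.0208, 0.00240 and 0.00124). The labels do not say that a replicate number marks a shared culture, and the deviations of same-numbered libraries correlated at 0.252 across genes. With the block 1 residual degree of freedom remains for each gene, so the moderated test rests mostly on variance shared over all genes. The SE was larger with the block than without it for IFI16 (0.235 against 0.195), IFI6 (0.233 against 0.215) and ERAP2 (0.227 against 0.201). For ERAP1, HLA-B and HLA-C it was smaller.

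Signs turned for genes near 0. After quantile normalization BST2 had a log2 fold change of 0.039, B2M 0.27 and IFITM3 -0.029. With a library left out, the value was -0.35 to 0.53 for IFNAR2, -0.64 to 0.076 for BST2, -0.33 to 0.43 for ISG20, -0.23 to 0.064 for B2M, -0.19 to 0.23 for IFITM3, -0.16 to 0.16 for OAS2 and -0.30 to 0.84 for IFNL1. With the length and GC correction OAS2 had -0.079. Depth is unknown, so low genes carry a counting error that is not given.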

Other observations

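Of the rows whose IDs are genes of GENCODE 29 outside its primary assembly annotation, 125 were tested. None passed by limma, while 27 were lower and 1 higher in CfzR at an unadjusted p under 0.05. Without overlap 46 lay lower (36.8%, against 22.6% of all genes tested) and 6 higher (4.80%, against 22.1%). The median log2 fold change was -0.18, with medians of -0.35 and -0.06 in CfzR replicates 1 and 2. The files do not pair these IDs with names. Chosen after its values were seen, ENSG00000223532 had 650 and 619 FPKM in WT and 300 and 356 FPKM in CfzR (a log2 difference of -0.95 with an SE of 0.26, adjusted p = 0.256). ENSG00000228964, likewise picked with its values known, had 316 and 272 FPKM in WT and 309 and 334 FPKM in CfzR, with overlap (log2 fold change 0.13). The levels of both exceed those of the rows that carry the names HLA-B and HLA-C. Whether either belongs to the same genes was not tested. Of the 125 rows, 90 had a log2 fold change below 0 and 35 above.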
